A study of Mus musculus with 6 samples.

Results

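The genes described here are 10 immediate early response genes, namely *Fos*, *Fosb*, *Jun*, *Junb*, *Egr1*, *Atf3*, *Nr4a1*, *Myc*, *Ier2* and *Dusp1*, out of 21776 genes in the deposited table. They were taken from the table by gene symbol, and all 10 were found with a value in every heart. The hearts came from 3 *Trdn-as* KO mice and 3 WT mice, and each heart gave 1 strand-specific total RNA library. The hearts are called KO 1 to KO 3 and WT 1 to WT 3 by their replicate numbers, and values are listed in that order. *Trdn-as* is a nuclear long non-coding RNA made from the strand opposite *Trdn*, which encodes triadin, a protein of the calcium release complex of the heart. In the KO animals a polyA cassette had been placed in the first exon of *Trdn-as* in embryonic stem cells with Cas9, and mice derived from these cells were crossed to C57BL/6 and bred to homozygosity. The series title speaks of a deficiency in cardiomyocytes, whereas the described insertion is passed through the germ line and is thus carried by every cell. WT hearts carried no insertion, no drug or other treatment is given for either group, and the age and sex of the sequenced animals are not given in the sources used here.

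Immediate early genes are switched on within minutes when a cell meets growth factors, calcium, stretch or stress, without new protein synthesis, through factors such as SRF with its ternary complex partners and CREB that already sit on their promoters. Most of them encode short-lived transcription factors, and their messages are degraded quickly, so that the level at any moment reflects recent stimulation. In the heart they are known to respond to pressure load, adrenergic stimulation and calcium, and also to the handling of tissue before RNA is extracted.

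The values are normalised read counts, that is reads counted over the exons of a gene, divided by a size factor of the library and rounded. The 6 libraries summed to between 3.13 and 3.25 M, and the reads behind them were estimated at 3.62, 3.31 and 3.15 M in KO and 2.59, 3.04 and 3.46 M in WT. *Trdn-as*, listed as AC157017.2, was at 1, 0 and 1 in the KO hearts and 690, 773 and 688 in the WT hearts, which matched the labelled genotype of each library. *Trdn* was at 2489, 2381 and 2551 in KO and 1541, 1541 and 1516 in WT. The labels call the samples heart, and every cardiomyocyte, endothelial, fibroblast, smooth muscle and leukocyte marker examined was present in at least 1 heart. The 6 cardiomyocyte markers, among them *Myh6*, *Tnnt2* and *Ryr2*, summed to between 19292 and 20642 in KO and 20152 and 24665 in WT, and all 6 had a lower fitted level in KO, 4 of them at an unadjusted limma p under 0.05, against 2.80% of all tested genes that were lower in KO at such a p. Summed endothelial markers ranged from 4082 to 4741 in KO and 4108 to 4616 in WT, fibroblast markers from 2533 to 2843 and 2682 to 2891, smooth muscle and pericyte markers from 2681 to 2966 and 2736 to 3173, and macrophage and leukocyte markers from 833 to 1162 and 951 to 1057. Nothing in the labels gives the hearts as litters or pairs, and p-values here measure only the spread between these 6 samples. In RNA of heart tissue fewer cells of a type and less RNA per cell cannot be told apart.

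Upstream sequence was available for 7 of the 10 genes, taken from RefSeq on GRCm38.p6, and *Egr1*, *Myc* and *Ier2* were not matched. The 150 bases before the RefSeq start site are shown for the 4 FOS and JUN genes, because the results below turn on them, and for *Dusp1*, because it holds TGACGTCA, the full palindrome bound by CREB. RefSeq start sites need not coincide with the gene ends in the deposited table. *Fos* is read from chr12:85473740-85473889 on the plus strand, *Fosb* from chr7:19310046-19310195, *Jun* from chr4:95052223-95052372, *Junb* from chr8:84978749-84978898 and *Dusp1* from chr17:26508473-26508622, the last 4 on the minus strand. All are written 5′ to 3′ in the direction of the gene. Capitals mark TGACG (the core of the CREB site), TGACNTCA (the complete CREB or ATF site), TATAAA and CCAAT on the written strand or its complement.
Fos: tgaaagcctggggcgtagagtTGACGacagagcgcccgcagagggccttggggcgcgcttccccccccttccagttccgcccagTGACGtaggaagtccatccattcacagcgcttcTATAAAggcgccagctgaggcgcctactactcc
Fosb: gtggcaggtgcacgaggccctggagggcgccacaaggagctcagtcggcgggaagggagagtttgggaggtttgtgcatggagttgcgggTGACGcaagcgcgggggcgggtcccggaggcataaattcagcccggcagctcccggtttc
Jun: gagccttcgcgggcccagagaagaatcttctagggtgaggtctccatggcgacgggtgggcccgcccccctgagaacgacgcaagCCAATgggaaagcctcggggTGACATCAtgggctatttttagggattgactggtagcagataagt
Junb: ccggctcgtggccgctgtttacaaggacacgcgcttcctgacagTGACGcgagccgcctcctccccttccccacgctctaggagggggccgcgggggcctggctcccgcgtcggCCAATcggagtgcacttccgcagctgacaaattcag
Dusp1: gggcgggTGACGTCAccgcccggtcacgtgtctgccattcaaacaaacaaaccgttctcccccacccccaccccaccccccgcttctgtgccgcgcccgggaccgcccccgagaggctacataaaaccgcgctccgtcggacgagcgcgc

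The 250 bases upstream of each start were searched on both strands for 7 motifs. TGACG was found in 6 of the 7 genes, all but *Jun*, and in 17.8% of 32851 windows of the same length. TGACNTCA, which holds TGACG where its N is G, was found in *Jun* and *Dusp1* and in 7.49% of all windows. *Fos* has TGACG at 66 to 62 and at 129 to 125 bases before its start, with TATAAA at 33 to 28, and it was the only one of the 7 with TATAAA, present in 12.4% of all windows. *Jun* has TGACATCA at 45 to 38 bases before its start and CCAAT at 65 to 61. *Junb* has TGACG at 106 to 102 and CCAAT at 36 to 32, and CCAAT was found in 33.9% of all windows. *Fosb* has TGACG at 60 to 56, and *Dusp1* has TGACGTCA at 143 to 136. The EGR motif GCGNGGGCG was found in *Fosb* and *Nr4a1* and in 4.70% of all windows. TGANTCA, the AP-1 site, and the CArG box, the SRF site, were found in 0 of the 7 windows and in 6.75% and 1.47% of all windows. These are matches of letters and not measured binding, and SRF sites of early genes can lie farther upstream than the bases searched.

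Of the 10 genes, 9 reached a mean of 10 over the 6 hearts and were tested, and *Fosb* did not. *Fos* and *Jun* were higher in KO hearts at a small unadjusted p, *Fos* 2.27-fold and *Jun* 1.25-fold, and none of the 9 passed the adjustment over all genes. In the limma fit on log2(value + 1) over all 13753 tested genes, 0 of the 9 had an adjusted p under 0.05, against 4 genes or 0.0291% of the table. At an unadjusted p under 0.05 there were 2 of 9, both higher in KO, against 5.74% of all genes in either direction and 2.94% higher in KO. The fitted level was higher in KO for 7 of 9, against 50.6% of all genes. With 1 library left out it was higher for 5 to 8 of 9, with 5 without KO 1 or WT 1 and 8 without WT 2. The KO and WT hearts did not overlap in 1 of 9, *Jun*, where the KO hearts were the higher ones, against 9.07% of all genes in either direction and 4.64% with KO higher. The median fitted log2 fold change was 0.09 over the 9 genes and 0.00 over all tested genes. The median over the 9 rested on single libraries, at 0.26 without KO 2, 0.19 without WT 2, 0.17 without WT 3, 0.063 without KO 1 and 0.048 without WT 1. With limma-voom in place of limma on log2 values, 0 of 9 also had an adjusted p under 0.05.

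**Figure D1:**
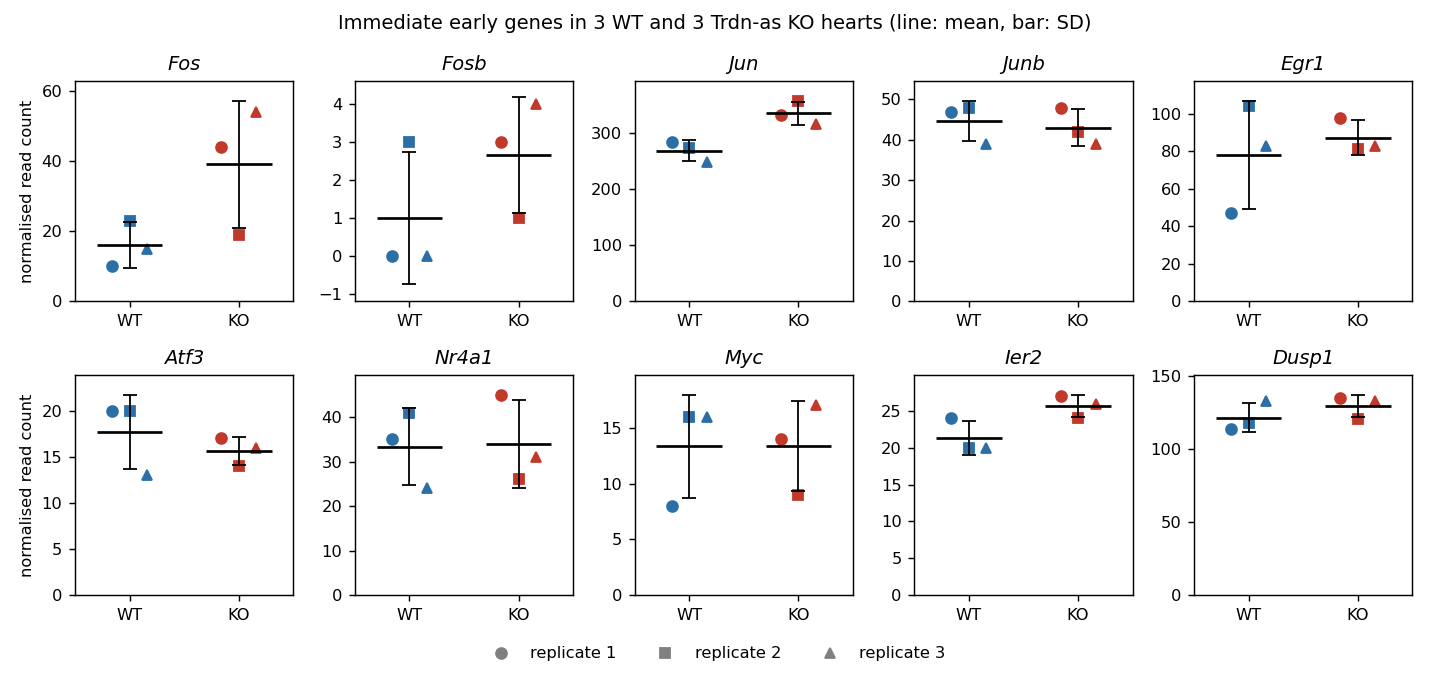
Normalised read counts (vertical axes, a separate linear scale for each gene) of the 10 immediate early genes in 3 WT hearts (blue) and 3 KO hearts (red), with the symbol giving the replicate number, the horizontal line the mean and the bar the SD (n = 3). The 3 KO hearts lie above the 3 WT hearts for *Jun*, and for *Fos* KO 2 at 19 lies below WT 2 at 23.

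The FOS and JUN proteins pair to form the transcription factor AP-1, with FOS proteins unable to bind DNA without a JUN partner. *Jun* (ENSMUSG00000052684, 1 exon, chromosome 4, 95049034 to 95052222, minus strand, GRCm38) encodes c-Jun. Its normalised read count was 332, 356 and 315 in KO 1 to KO 3 and 284, 272 and 247 in WT. All KO hearts were above all WT hearts, the lowest KO heart at 315 and the highest WT heart at 284. The mean was 334 ± 20.6 (SD, n = 3) in KO and 268 ± 18.9 (SD, n = 3) in WT. The fitted log2 fold change was 0.32 (SE 0.08, 95% interval 0.15 to 0.49), which is 1.25-fold. The unadjusted p was 0.00071, the rank was 17 among all tested genes, and the adjusted p of limma was 0.518. Over 14 alternatives the log2 fold change stayed between 0.26 and 0.36 and the unadjusted p between 0.000305 and 0.0109, and the adjusted p between 0.204 and 0.974. The spread of *Jun* within a genotype was close to that of other genes at its level, with a residual SD of 0.10 on the log2 scale, above 56.0% of 2592 genes within 1.5-fold of its mean. Its exon overlaps 232 bases of the antisense gene *Junos*, whose values were 3, 4 and 10 in KO and 4, 2 and 3 in WT, and counting was done by strand.

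*Fos* (ENSMUSG00000021250, chromosome 12, 85473890 to 85477273, plus strand) encodes c-Fos, the classical partner of c-Jun. Its normalised read count was 44, 19 and 54 in KO and 10, 23 and 15 in WT. KO 1 and KO 3 stood above every WT heart, while KO 2 lay inside the WT range. The mean was 39 ± 18.0 (SD, n = 3) in KO and 16 ± 6.56 (SD, n = 3) in WT. The fitted log2 fold change was 1.18 (SE 0.33, 95% interval 0.48 to 1.88), which is 2.27-fold, with an unadjusted p of 0.00215 and an adjusted p of 0.689 by limma. Its log2 fold change was between 0.89 and 1.62 over 14 alternatives, with an unadjusted p between 6.21e-05 and 0.0332 and an adjusted p between 0.190 and 0.999. The lowest p and the largest difference came without KO 2, the heart inside the WT range. *Fos* was read from few molecules, an estimated 51, 20 and 54 reads in KO and 8, 22 and 17 in WT. Exact Poisson 95% intervals for the normalised values were 33.1 to 58.4, 11.6 to 29.2 and 40.4 to 70.1 in KO and 4.34 to 19.8, 14.4 to 34.9 and 8.98 to 24.7 in WT, and they cover counting error only. KO 1 and KO 3 therefore lay above KO 2 by more than counting error, and the variance of *Fos* within a genotype was 6.89 times the counting variance, against a median of 1.09 over all tested genes. Its residual SD of 0.68 was higher than in 99.0% of 2229 genes within 1.5-fold of its level, whose median was 0.26.

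*Fosb* (ENSMUSG00000003545, chromosome 7, 19302696 to 19310051, minus strand) encodes FosB, another FOS protein. It was listed at 3, 1 and 4 in KO and 0, 3 and 0 in WT. A count of 0 allows up to 3 reads, which is a normalised value of 2.61 to 3.77 depending on the library, and only KO 3, with an estimated 4 reads, was above that floor. KO 1 and WT 2 were at it, with an estimated 3 reads each. *Fosb* was not tested and no fold is given. *Junb* (ENSMUSG00000052837, chromosome 8, 84976910 to 84978718, minus strand) encodes JunB, a JUN protein with weaker activity than c-Jun on many targets. *Junb* was at 48, 42 and 39 in KO and 47, 48 and 39 in WT. The genotypes covered the same range, and the log2 fold change by limma was -0.05 (95% interval -0.42 to 0.32, unadjusted p 0.767).

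Since AP-1 is assembled from these families, the genes were also set side by side per exonic kilobase, the only scale used here on which levels of different genes can be compared. Exon lengths were those of GENCODE M21, where *Junb* has 2301 exonic bases, more than its deposited coordinates printed above can hold. Values and shares of *Junb* on this scale are therefore too low for those coordinates. The JUN sum is too low with them, and the shares of the other JUN genes are too high. *Jund*, a JUN gene expressed at rest in most tissues, *Fosl2* and *Fosl1* were added from the list of other AP-1 genes. The JUN genes together reached 216 ± 15.4 normalised reads per exonic kilobase in KO and 195 ± 24.9 in WT (SD, n = 3). *Jun* made up 44.9, 51.5 and 49.2% of this sum in KO and 41.0, 42.8 and 46.1% in WT, so that KO 1 was below WT 3. The share of *Junb* was 9.0, 8.42 and 8.44% in KO and 9.40, 10.5 and 10.1% in WT, lower in each KO heart, and this share was not tested. On this scale *Junb* itself was at 18.7 ± 1.99 in KO and 19.4 ± 2.14 in WT, and *Jun* at 105 ± 6.46 and 83.9 ± 5.92. The FOS genes together reached 34.0 ± 6.85 normalised reads per exonic kilobase in KO and 24.0 ± 4.55 in WT. *Fos* made up 50.8, 30.8 and 58.9% of it in KO and 21.9, 34.3 and 26.6% in WT. Per exonic kilobase *Fos* was above *Fosl2* in KO 1 (18.7 against 17.1) and KO 3 (23.0 against 15.4). In the other 4 hearts *Fos* was below *Fosl2*. The values in KO 1 were close, and counting error was not carried onto this scale. The order also rests on merged exon lengths of 9680 bases for *Fosl2* and 2352 for *Fos*. Before this division *Fosl2* had the higher count in each heart. *Fosl2* itself was at 166, 169 and 149 in KO and 142, 172 and 161 in WT, a log2 fold change of 0.03 by limma (unadjusted p 0.775). *Jund* was at 178, 145 and 142 in KO and 180, 155 and 123 in WT, a log2 fold change of 0.03 (unadjusted p 0.806).

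**Figure D2:**
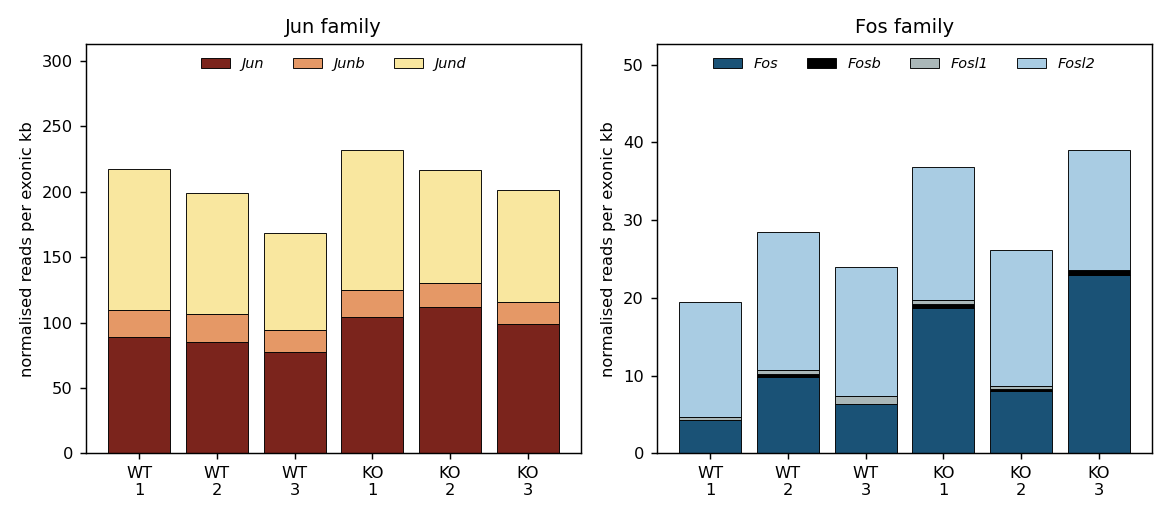
Stacked normalised reads per exonic kilobase (vertical axes, linear from 0) of the JUN genes (left) and the FOS genes (right) in each of 3 WT and 3 KO hearts, with 1 bar per heart and 1 colour per gene. The *Jun* segment is taller in each KO heart than in each WT heart, and the *Fos* segment exceeds that of *Fosl2* only in KO 1 and KO 3.

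Among the other transcription factors, *Egr1* (ENSMUSG00000038418), a zinc finger factor induced through SRF, was at 98, 81 and 83 in KO and 47, 104 and 83 in WT. The KO hearts were close together, and the WT hearts held both the lowest and the highest value. The log2 fold change by limma was 0.23 (95% interval -0.19 to 0.65, unadjusted p 0.266). It rested on WT 1, without which it was -0.094, and without WT 2 it was 0.47 with an unadjusted p of 0.0326. The variance of *Egr1* within a genotype was 5.64 times the counting variance, and its residual SD of 0.42 was higher than in 98.9% of 2909 genes of similar level. WT 1, where *Egr1*, *Fos* and *Myc* were each at their lowest, was also the library with the fewest estimated reads, at 2.59 M, and the part of depth in these values was not tested.

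*Nr4a1* (ENSMUSG00000023034), an orphan nuclear receptor induced by calcium and cyclic AMP signals, was at 45, 26 and 31 in KO and 35, 41 and 24 in WT. The genotypes were interleaved, and the log2 fold change by limma was 0.02 (95% interval -0.47 to 0.52, unadjusted p 0.921). *Atf3* (ENSMUSG00000026628), a stress-induced factor of the ATF family that pairs with JUN proteins, was at 17, 14 and 16 in KO and 20, 20 and 13 in WT. WT 1 and WT 2 were the highest and WT 3 the lowest of the 6 hearts, with a log2 fold change of -0.14 (95% interval -0.72 to 0.44, unadjusted p 0.612). For *Atf3* it was -0.045 without WT 1 or WT 2, -0.069 without KO 2 and -0.34 without WT 3. *Myc* (ENSMUSG00000022346), the growth regulator c-Myc, was at 14, 9 and 17 in KO and 8, 16 and 16 in WT. Both genotypes had a mean of 13.3, and the log2 fold change was 0.02 with an interval of -0.69 to 0.73 and an unadjusted p of 0.958, so the interval for *Myc* reached up to 1.66-fold higher in KO at this depth.

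The remaining genes encode other kinds of protein. *Ier2* (ENSMUSG00000053560) encodes a small nuclear protein, and its gene lies on chromosome 8 as *Junb* does. *Ier2* was at 27, 24 and 26 in KO and 24, 20 and 20 in WT, with KO 2 tied with WT 1. The log2 fold change by limma was 0.26 (95% interval -0.21 to 0.73, unadjusted p 0.267), and it remained above 0 in all 14 alternatives. Without the mean-variance trend the unadjusted p of *Ier2* was 0.0400. Its variance within a genotype was only 0.16 times the counting variance. Its residual SD of 0.12 was above that of 4.16% of 2161 genes within 1.5-fold of its mean. *Dusp1* (ENSMUSG00000024190) encodes the dual-specificity phosphatase that switches off MAP kinases and so ends the early response. *Dusp1* was at 135, 121 and 133 in KO and 114, 118 and 133 in WT. KO 3 and WT 3 had the same value, and the log2 fold change was 0.09 (95% interval -0.13 to 0.32, unadjusted p 0.399). For *Dusp1* it was 0.048 without WT 1, 0.14 without KO 2 and 0.16 without WT 3.

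**Figure D3:**
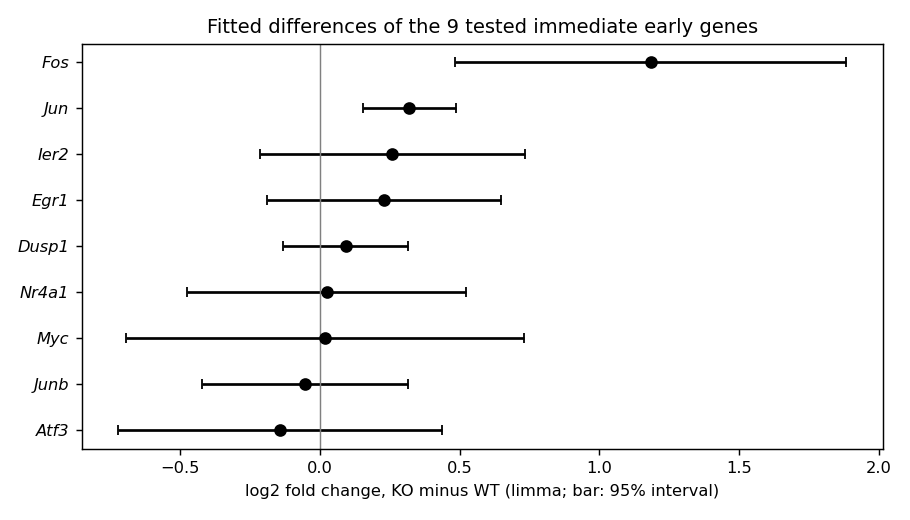
Fitted log2 fold change of KO minus WT (horizontal axis, log2 scale) with its 95% interval for the 9 tested immediate early genes, from limma on log2(value + 1). The intervals of *Fos* (0.48 to 1.88) and *Jun* (0.15 to 0.49) lie above 0, and the other 7 include 0.

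Per exonic kilobase of GENCODE M21 and over all 6 hearts, *Jun* was the most abundant of the 10 genes at 94.4 normalised reads, followed by *Dusp1* at 38.0. The *Dusp1* value rests on 3311 exonic bases, more than its deposited coordinates hold, and is too low for those coordinates. Their ranges over hearts, 77.5 to 112 for *Jun* and 34.4 to 40.8 for *Dusp1*, did not meet each other or those of the other genes. *Junb* at 19.1, *Egr1* at 18.4, *Ier2* at 15.4 and *Fos* at 11.7 came next, and the range of each overlapped that of its neighbours. The *Junb* value rests on 2301 exonic bases, more than its deposited coordinates hold, and is too low for those coordinates. *Nr4a1* at 9.59, *Atf3* at 7.74 and *Myc* at 4.91 were lower, again with overlapping ranges between neighbours. The place of *Fos* differed by genotype, since its mean of 6.80 in WT was below *Nr4a1* (9.50) and *Atf3* (8.20) and its mean of 16.6 in KO was close to *Ier2* (16.9). *Fosb* was last at 0.294, with its highest heart at 0.641 below the lowest heart of *Myc* at 2.94. The 10 genes thus spanned a wide range of levels, down to the floor of detection.

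The 9 tested genes did not move from heart to heart as 1 block. To describe this, the log2(value + 1) of each gene was centred on its own mean over the 6 hearts. The mean of the centred values was 0.26, -0.12 and 0.18 in KO and -0.25, 0.10 and -0.18 in WT. In KO 1 all 9 genes were above their own mean and 4 had their highest value there, ties included. WT 1 held the lowest value of 4 genes and WT 3 that of 5, with *Junb* and *Ier2* tied with another heart, while WT 2 was above KO 2. Without *Fos* and *Jun* the means were 0.19, -0.15 and 0.05 in KO and -0.15, 0.15 and -0.10 in WT, with both a KO and a WT heart at the upper and at the lower end. Of the 36 pairs of genes 23 had a positive Pearson correlation over the 6 hearts, with a median r of 0.11. The highest were *Junb* with *Nr4a1* at 0.85, *Atf3* with *Nr4a1* at 0.81, *Junb* with *Atf3* at 0.80 and *Ier2* with *Jun* at 0.79. Each of these pairs holds a gene whose variance within a genotype was below the counting variance. It was 0.51 times that variance for *Junb*, 0.55 for *Atf3* and 0.16 for *Ier2*, against 2.53 for *Nr4a1* and 1.30 for *Jun*. *Egr1* and *Fos*, at 5.64 and 6.89 times, had an r of 0.64. The part of counting error in these correlations was not tested. *Fos* was the gene most like the mean of the other 8, with r = 0.80, and *Atf3* the least, with r = 0.06. These correlations describe 6 hearts that share their libraries, and no p is attached to them.

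**Figure D4:**
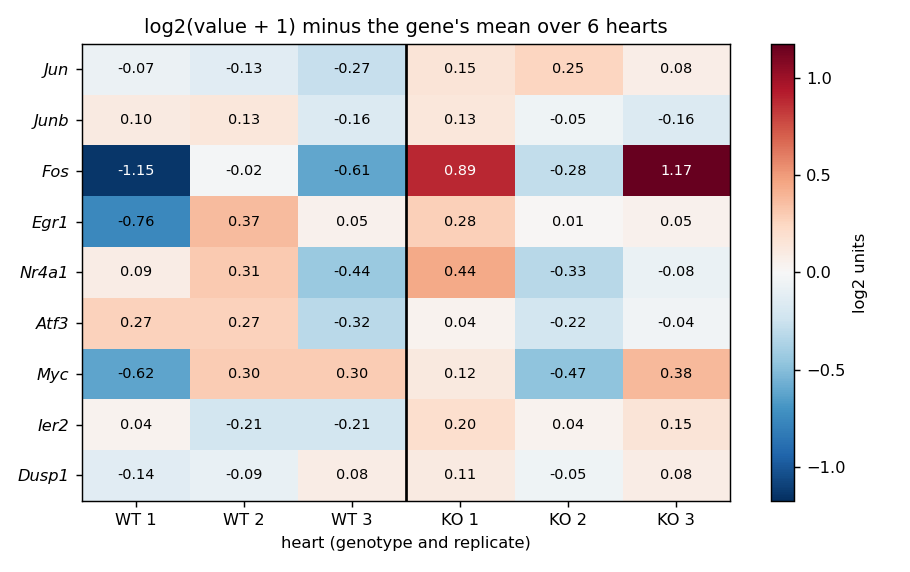
Log2(value + 1) minus the mean of the gene over 6 hearts (colour and printed number, log2 units) for 9 immediate early genes (rows) in 3 WT and 3 KO hearts (columns, separated by the black line). All 9 genes are above their own mean in KO 1, *Fos* ranges from -1.15 in WT 1 to 1.17 in KO 3, and *Jun* is below 0 in each WT heart and above 0 in each KO heart.

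The 5 genes outside the 10 whose pattern over the 6 hearts was most like this mean profile were *Rbm17* (r = 0.989), *Ankrd12* (0.982), *Pdzrn3* (0.979), *Dnajc14* (0.975) and *Prpf38b* (0.974). Over the 13744 tested genes that are not among the 10, 114 or 0.829% had an r above 0.9 with it. *Zfp36*, which encodes an RNA-binding protein that speeds the decay of early messages, was the only one among 52 other early genes, with an r of 0.917. It was at 93, 61 and 69 in KO and 49, 66 and 57 in WT.

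A wider list of 66 other immediate early and delayed early genes was examined in the same fit. Of these 64 were in the table and 52 passed the filter, 34 (65.4%, against 50.6% of all genes) with a higher and 18 with a lower fitted level in KO. None had an adjusted p under 0.05, and 8 had an unadjusted p under 0.05 (15.4%, against 5.74% of all genes), 7 of them higher in KO (2.94% of all genes). The groups did not overlap in 10 of 52, against 9.07% of all genes, with KO above WT in 9, against 4.64%. The median log2 fold change was 0.05. The list was drawn up with results of these data known, and its share is a description. Under the alternatives the number at an unadjusted limma p under 0.05 was 7 to 12. The 12 were of 64 genes tested with no filter beyond a total of 1. Over the same settings the share of all genes at such a p was 3.69% (without KO 3) to 8.60% (without WT 3).

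*Klf10*, a zinc finger factor induced early by TGF-beta, had the smallest p of the list. It was at 188, 239 and 285 in KO and 165, 168 and 164 in WT. All KO hearts were above the WT hearts, and the WT hearts were nearly equal. Its log2 fold change was 0.50 (SE 0.11, unadjusted p 0.00034, adjusted p 0.360 by limma), and its adjusted p was 0.00451 to 0.999 over 14 alternatives, the lowest without KO 1. *Hes1*, a repressor and Notch target, was at 125, 138 and 156 in KO and 113, 95 and 106 in WT, again without overlap, with a log2 fold change of 0.41 (unadjusted p 0.00202, adjusted p 0.689 by limma).

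*Nr4a3*, a relative of *Nr4a1* in the NR4A family of nuclear receptors, was the only gene of the list with an unadjusted p under 0.05 and a lower level in KO. It was at 39, 20 and 19 in KO and 86, 36 and 35 in WT, with WT 1 far above the rest and KO 1 above the lower WT hearts. The log2 fold change was -0.93 (SE 0.30, unadjusted p 0.00631, adjusted p 0.762 by limma). Without WT 1 its log2 fold change was -0.51 and the unadjusted p 0.10. *Nr4a2*, the remaining member of the family, was at 17, 13 and 14 in KO and 13, 18 and 16 in WT, with a log2 fold change of -0.09 (unadjusted p 0.762). *Dusp7*, a relative of *Dusp1*, was at 245, 216 and 213 in KO and 191, 194 and 185 in WT, with no overlap and a log2 fold change of 0.24 (unadjusted p 0.0129, and 0.0784 without KO 1). *Dusp4*, another MAP kinase phosphatase, was at 18, 36 and 21 in KO and 19, 16 and 13 in WT, with a log2 fold change of 0.57 (unadjusted p 0.0596). *Btg2*, an antiproliferative early gene, was at 278, 219 and 173 in KO and 185, 172 and 185 in WT, with a log2 fold change of 0.28 (unadjusted p 0.0346) and KO 3 inside the WT range. Over the alternatives for *Btg2* the unadjusted p was under 0.05 in 9 of 14, and the log2 fold change was 0.11 without KO 1 (unadjusted p 0.333) and 0.45 without KO 3. *Mafg* and *Maff*, small MAF proteins, had log2 fold changes of 0.14 (unadjusted p 0.0825) and -0.30 (unadjusted p 0.187), and *Hbegf*, a growth factor shed from the cell surface, one of -0.17 (unadjusted p 0.154).

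**Figure D5:**
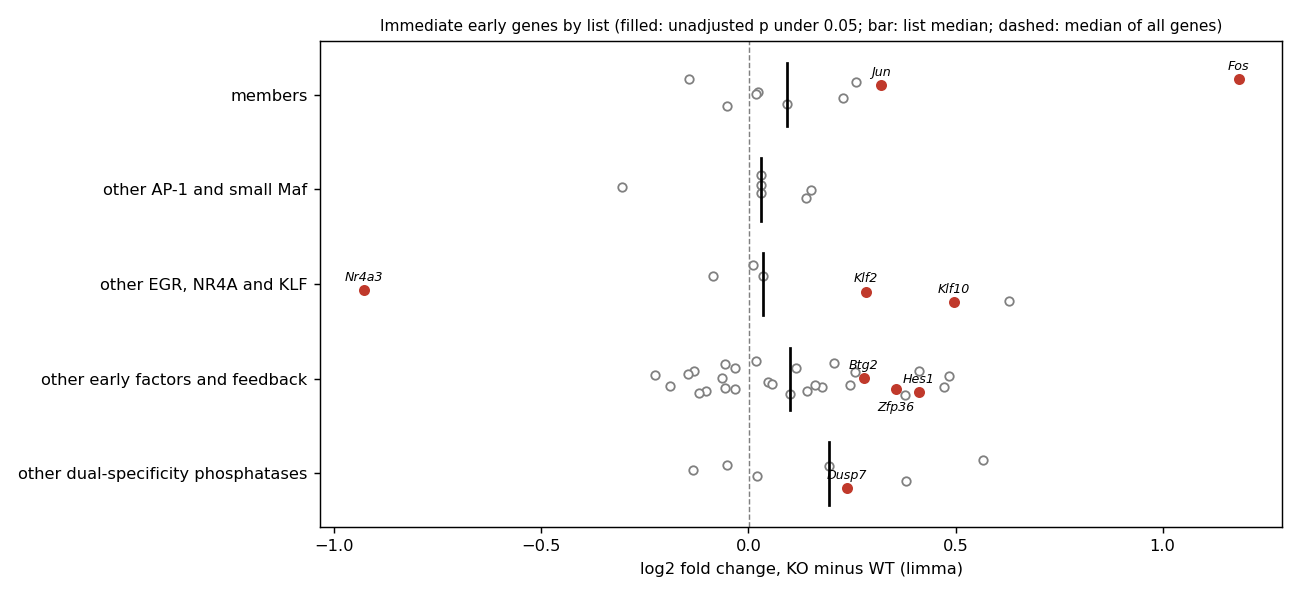
Fitted log2 fold change of KO minus WT (horizontal axis, log2 scale) of the 9 tested members and of the further early genes in 4 of their 5 lists (vertical axis, with points spread only for legibility), where filled points have an unadjusted limma p under 0.05, black bars are list medians and the dashed line is the median of all tested genes. *Fos* at 1.18 lies farthest to the right and *Nr4a3* at -0.93 farthest to the left.

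Genes of the routes upstream of the early genes were examined at the level of their own transcripts. Counts over exons do not tell isoforms of a gene apart, and the activity of the proteins was not measured. Of 29 tested genes for SRF, its cofactors, the CREB family and the MAP kinase route, 16 were higher in KO, against 50.6% of all genes, 0 had an adjusted p under 0.05 and 2 an unadjusted p under 0.05, against 5.74% of all genes. Both counts were near the background. The 2 genes are given as single values. *Rps6ka5*, the kinase MSK1 that phosphorylates CREB, was at 183, 164 and 208 in KO and 141, 150 and 158 in WT, each KO heart lying above the WT hearts, and had a log2 fold change of 0.30 (unadjusted p 0.00834, adjusted p 0.772 by limma). *Crem*, a CREB relative, was at 92, 89 and 103 in KO and 78, 67 and 86 in WT, also without overlap, with a log2 fold change of 0.30 (unadjusted p 0.0358). Without KO 3 the unadjusted p was 0.0762 for *Rps6ka5* and 0.141 for *Crem*, and without WT 1 or WT 2 it was 0.0532 or 0.175 for *Crem*. *Crtc2*, a CREB coactivator, had a log2 fold change of 0.29 (unadjusted p 0.0613), and *Map2k1*, the kinase MEK1, one of 0.16 (unadjusted p 0.117).

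Partners of MYC and corepressors of EGR proteins were read in the same way, with 5 of 9 tested genes higher in KO (50.6% of all genes), 0 with an adjusted p under 0.05 and 1 with an unadjusted p under 0.05 (5.74% of all genes). The count of higher genes was near the background. The gene at a small p was *Mycn*, the relative of *Myc* known from the embryonic heart, at 39, 48 and 53 in KO and 30, 36 and 25 in WT. All KO hearts were above all WT hearts, and the log2 fold change was 0.61 (SE 0.20, unadjusted p 0.00651, adjusted p 0.770 by limma), while *Myc* itself had the same mean in both genotypes. *Mxd1*, a MYC antagonist, had a log2 fold change of 0.16 (unadjusted p 0.264). The EGR corepressors *Nab2* and *Nab1* had log2 fold changes of 0.25 (unadjusted p 0.131) and -0.02 (unadjusted p 0.798).

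Heat shock genes respond to stress by another route. Of 6 such genes 4 were tested, 0 had an adjusted p under 0.05, and 3 (*Hspb1*, *Hsph1* and *Hspa8*) had a lower level in KO at an unadjusted p under 0.05, against 2.80% of all genes. The fourth, *Dnajb1*, was at 64, 67 and 57 in KO and 53, 64 and 62 in WT, with a log2 fold change of 0.07 (unadjusted p 0.641). The 6 genes summed to between 1020 and 1050 in KO and 1187 and 1439 in WT, without overlap. Most of the sum was *Hsph1* and *Hspa8*, the latter at 545, 564 and 576 in KO and 704, 629 and 583 in WT. The untested genes were low, with *Hspa1a* at 4, 5 and 9 in KO and 9, 4 and 11 in WT. *Hspa1b* was at 7, 8 and 5 in KO and 6, 2 and 4 in WT. *Hspb1*, a small heat shock protein abundant in muscle, was at 54, 51 and 45 in KO and 69, 67 and 83 in WT, with a log2 fold change of -0.53 (unadjusted p 0.00237, adjusted p 0.689 by limma). *Hsph1*, a partner of HSP70, was at 376, 329 and 328 in KO and 365, 421 and 696 in WT, with WT 3 the highest and a log2 fold change of -0.47 (unadjusted p 0.0049). Without WT 3 it was -0.19 for *Hsph1*, and without WT 1 *Hspa8* was at -0.11 (unadjusted p 0.126) in place of -0.18. Of 6 glucocorticoid-responsive genes 3 were higher in KO, against 50.6% of all genes, 0 had an adjusted p under 0.05 and 1 an unadjusted p under 0.05, against 5.74% of all genes. That gene, *Pdk4*, a kinase that limits glucose oxidation, was at 1682, 1885 and 1998 in KO and 1337, 1574 and 1742 in WT, with a log2 fold change of 0.26 (unadjusted p 0.00339, adjusted p 0.744 by limma) that was 0.16 without WT 1. *Fkbp5*, a glucocorticoid-induced chaperone, was at 94, 95 and 64 in KO and 65, 67 and 86 in WT, with a log2 fold change of 0.20 (unadjusted p 0.23). Blood markers summed to between 164 and 304 in KO and 151 and 423 in WT, atrial markers to between 436 and 628 and 450 and 622, and the 4 fat markers in the table to between 8 and 40 and 11 and 17. The part of the heat shock, cardiomyocyte, blood, atrial and fat transcripts, and of tissue handling, in the levels of *Fos* and *Jun* was not tested.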

How the data were processed

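Per the labels and the study's methods, RNA of hearts was sequenced as stranded libraries with single-end reads. The authors used Trimmomatic 0.39, STAR 2.6.1d on GRCm38, Picard 2.21.1 for duplicates, featureCounts 1.6.5 over exons and DESeq2 1.18.1 for size factors. Each deposited value is a score, namely a normalised count rounded to whole numbers, so no count test was run. The size factor and the reads of each library were worked out from which whole numbers its values skip or repeat. Genes with a mean of at least 10 were compared on log2(value + 1) with limma 3.58.1 in R 4.3.3 (mean-variance trend, two-sided, Benjamini-Hochberg over 13753 genes, threshold 0.05), tested on simulated data. Exons came from GENCODE M21, where *Junb*, *Nr4a1* and *Dusp1* have other coordinates than those deposited. The members and lists were chosen with earlier results of these data known. The text names the 10 members, and *Trdn-as* and *Trdn* as a check of the labels. Named too are the 2 smallest p in each list of early, upstream, partner and stress genes, and list genes with an adjusted p under 0.05. So are the 5 genes most like the mean profile. Chosen after their values were seen were *Zfp36*, *Fosl1*, *Fosl2*, *Jund*, *Junos*, *Nr4a2*, *Hspa8*, *Dnajb1*, *Hspa1a* and *Hspa1b*. Alternatives were limma-voom, no trend, 2 other scalings, 2 other filters, a pseudocount of 0.1, a replicate block and leaving out each library. A further early gene that the rule names is not reported here.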

Additional observations from a re-analysis of the deposited data

How the results depend on the processing

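Of 223 values recomputed under other settings, 207 were unchanged by the rule for their kind, 8 changed sign and 8 moved. A fold change was unchanged if it kept its direction and its side of the adjusted threshold. A count was unchanged if it stayed within 1.5 times its value. The median of the members was unchanged if it differed by less than their median residual SD of 0.26. That limit is wide, since it is larger than the median itself. The count of members with an adjusted p under 0.05 was 0 in each, and *Fos* and *Jun* kept an unadjusted p under 0.05 in all 14. *Egr1* came under 0.05 without WT 2 (0.0326) and *Ier2* without the mean-variance trend (0.0400). The variance of *Ier2* within a genotype was 0.16 times the counting variance. Genes past the adjusted threshold over the whole table, 4 as reported, were 2 with a minimum of 10 in every sample and 1 without the mean-variance trend. Leaving out 1 library gave 2 to 32, namely 32 when it was KO 1, 7 when it was WT 3 and 2 when it was KO 2 or WT 1. For the 52 further early genes this count was 0 to 1, with 1 (*Klf10*) when KO 1 was left out and also 1 when WT 3 was left out. Fitted differences near 0 changed sign when 1 library was left out. *Egr1* ran from -0.094 without WT 1 to 0.47 without WT 2. *Junb* ran from -0.15 to 0.013, the latter with KO 3 left out, and was 0.00086 without WT 2. *Myc* ran from -0.29 (WT 1 left out) to 0.26, with -0.036 when KO 1 and -0.17 when KO 3 was left out. *Nr4a1* ran from -0.19 to 0.19 and was negative when KO 1 or WT 3 was left out. The median of the members, 0.09, was 0.16 with a minimum of 10 in every sample and with no filter beyond a total of 1, and 0.048 to 0.26 when 1 library was left out. The cause was not tested. Same-numbered hearts deviated from their group means with correlations of 0.05, -0.07 and -0.03. Such correlations take genes together and cannot exclude a pairing that affects only some of them. A replicate block left 4 genes past the adjusted threshold over the whole table, and 0 of these were members. Under the block 2 members had an unadjusted p under 0.05 and 7 were higher in KO. Their median log2 fold change was 0.09. The unadjusted limma p of *Nr4a3* was 0.00029 with the block and 0.0063 without, and that of *Pdk4* 0.00019 and 0.0034. It was higher with the block for *Fos* (0.0047 against 0.0022) and *Jun* (0.00074 against 0.00071). Whether the numbers pair the hearts was not tested further. Depth limits *Fosb*, *Myc* and *Atf3* most, at means of 1.83, 13.3 and 16.7.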
